A study of Mus musculus with 8 samples.

Results

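Sdha, Sdhb and Atp5b are 3 nuclear-encoded genes of the mitochondrial respiratory chain, and they were described here in liver RNA of fasted and fed mice. The members are the rows of a table of catalogued non-coding transcripts (NONCODE) that share exon bases, on either strand, with these genes in GENCODE release 21. The rule found 5 rows of 83057, 2 for Sdha, 2 for Sdhb and 1 for Atp5b, and these are 3 of the 19401 genes with a row, of which 8151 are protein-coding. The 3 genes were chosen with their difference between fasted and ad libitum livers already known, so that difference is given as a description and not tested. All mice were male C57BL/6 animals of around 20 weeks, killed at 10 am. Of the 8 libraries, 4 came from mice fasted for 24 h and 4 from mice fed ad libitum. Each was a stranded total RNA library made from 1 µg of liver RNA and labelled as a biological replicate. The labels name no transgene or drug.

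The respiratory chain passes electrons from NADH and succinate to oxygen, pumps protons across the inner mitochondrial membrane, and drives ATP synthase with the returning protons. Sdha encodes the flavoprotein subunit of complex II (succinate dehydrogenase), which oxidises succinate and so belongs to the citric acid cycle as well. Sdhb encodes the iron-sulfur subunit that carries the electrons on towards ubiquinone. Atp5b encodes the beta subunit of ATP synthase, which holds the catalytic sites. In the fasted liver, fatty acid oxidation feeds this chain and supports gluconeogenesis and ketone production.

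The rows hold little mRNA sequence, and the letters below show which part of each message they touch. For Sdha and Sdhb the capitals are the coding bases inside a row and the lower case is neighbouring coding sequence of the spliced mRNA. For Atp5b the capitals are the last 100 bases of the row, followed by 102 bases of intron and the first 48 bases of exon 8. All are written on the mRNA strand from GENCODE transcripts on mm10, and no other annotated gene had a copy of at least 90% identity in a search of these row-shared stretches.
Sdha exon 10, chr13:74331299-74331470, minus strand: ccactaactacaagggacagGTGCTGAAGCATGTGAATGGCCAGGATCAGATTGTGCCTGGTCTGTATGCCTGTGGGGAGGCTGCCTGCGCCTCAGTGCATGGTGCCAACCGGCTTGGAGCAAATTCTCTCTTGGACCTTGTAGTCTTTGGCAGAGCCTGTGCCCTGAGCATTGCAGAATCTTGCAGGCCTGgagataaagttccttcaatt
Sdha exon 6, chr13:74337391-74337539, minus strand: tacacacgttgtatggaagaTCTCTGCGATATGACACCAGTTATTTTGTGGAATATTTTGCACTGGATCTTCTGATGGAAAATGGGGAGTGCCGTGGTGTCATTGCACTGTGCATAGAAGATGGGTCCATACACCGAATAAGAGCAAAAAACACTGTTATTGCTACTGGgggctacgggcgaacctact
Sdhb exon 1, chr4:140961405-140961476, plus strand: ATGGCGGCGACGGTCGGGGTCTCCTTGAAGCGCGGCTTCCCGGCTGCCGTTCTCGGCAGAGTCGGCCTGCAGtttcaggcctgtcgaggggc
Atp5b intron 7 into exon 8, chr10:128088119-128088368, plus strand: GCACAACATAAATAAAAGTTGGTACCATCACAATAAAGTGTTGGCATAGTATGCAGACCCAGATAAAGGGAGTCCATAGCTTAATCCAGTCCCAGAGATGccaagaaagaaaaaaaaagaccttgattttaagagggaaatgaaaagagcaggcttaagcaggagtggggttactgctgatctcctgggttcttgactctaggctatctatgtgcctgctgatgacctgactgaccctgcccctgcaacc

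The Sdha gene lies at chr13:74322254-74350280 on the minus strand, with 15 exons and an mRNA of 2900 bases. Its row NONMMUT018252.2 is a single stretch of 2631 bases at chr13:74329427-74332057 on the gene's own strand. It covers the 172 bases of coding exon 10 and parts of introns 9 and 10, and 93.5% of it is intron. Its row NONMMUT018253.2 is a single stretch of 1738 bases at chr13:74336912-74338649 on the same strand. It covers the 149 bases of coding exon 6 and parts of introns 5 and 6, and 91.4% of it is intron.

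The Sdhb gene lies at chr4:140961203-140979193 on the plus strand, with 8 exons and an mRNA of 1142 bases. Row NONMMUT050306.2 spans 2408 bases at chr4:140961389-140963796 on the gene's strand. It holds the last 88 bases of exon 1, of which 72 are coding, and then runs into intron 1, which makes up 96.3% of it. Row NONMMUT117552.1 has 2 exons with 734 bases, lies at chr4:140960351-140961209 on the opposite strand, and reaches at most 7 bases into the 5′ UTR in exon 1, since only its first and last bases are known to be exonic. The other 852 bases of its span lie outside the gene, so it is a divergent neighbour of the Sdhb start rather than part of the message.

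The Atp5b gene lies at chr10:128083273-128090391 on the plus strand, with 10 exons and an mRNA of 1916 bases. Its row NONMMUT008119.2 is a single stretch of 919 bases at chr10:128087300-128088218, inside intron 7. It has 0 bases of the mRNA's exons and enters the set through 538 bases of the first exon of an annotated retained-intron transcript. By bases, the own-strand rows of all 3 genes are therefore mainly intron. Each row has a single read count, so the split of reads between exon and intron is unknown for Sdha and Sdhb. The values cannot be read as levels of the spliced mRNA.

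**Figure D1:**
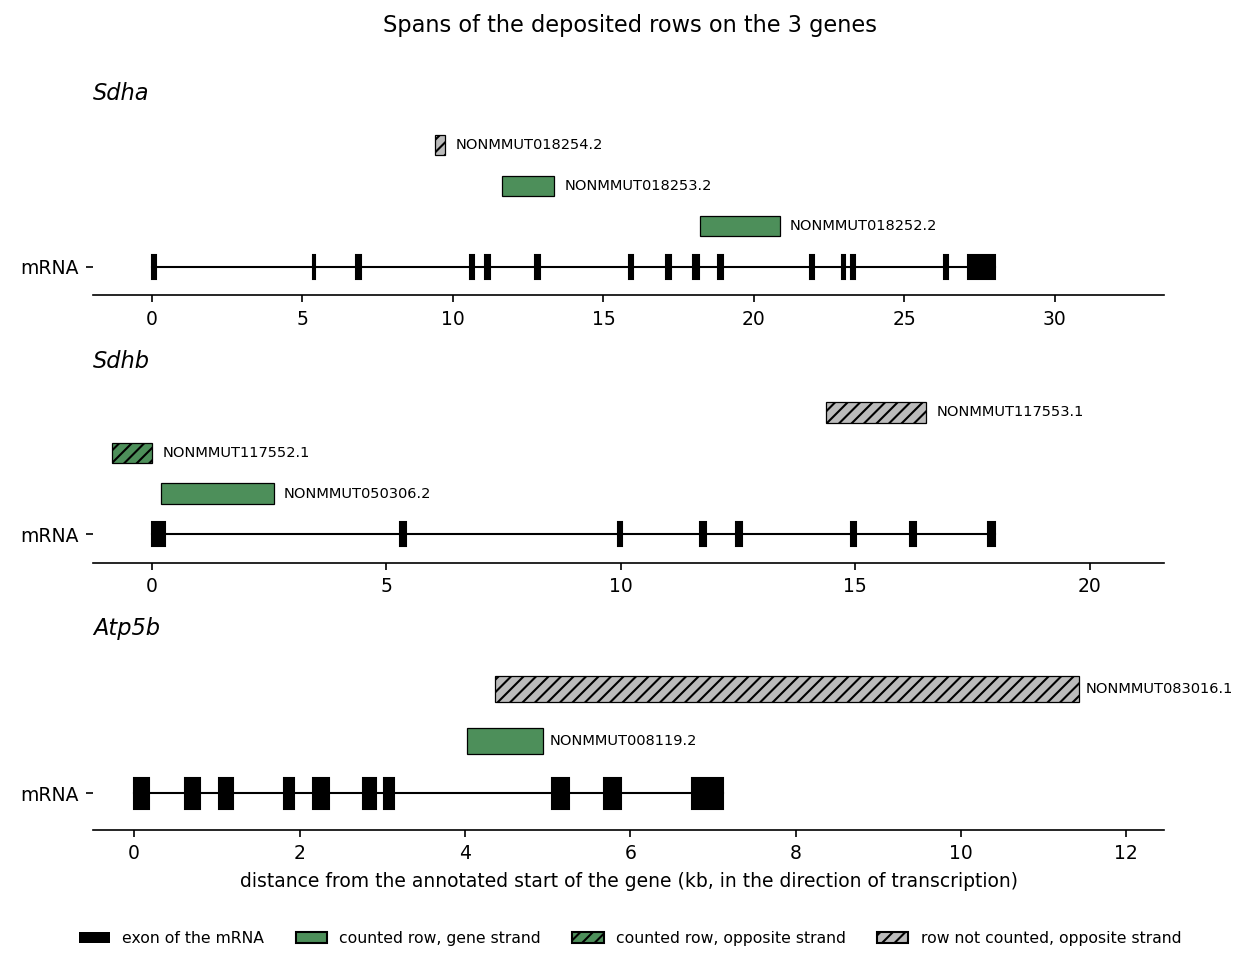
Position of the deposited rows along Sdha, Sdhb and Atp5b, in kb from the annotated gene start in the direction of transcription. Black boxes are mRNA exons, green boxes the 5 counted rows, grey boxes 3 rows that were not counted, and hatching marks the strand opposite to the gene. The counted rows lie mostly over introns.

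The libraries held 126365222 to 169698844 deposited reads in fasted livers and 51107745 to 98464634 in ad libitum livers. The lowest total, of ad libitum replicate 3, lacks the 16S rRNA row, which is empty there. Its deposited RPKM values imply a total of 70845344 reads. Fasted replicates 1 to 3 stood apart from fasted replicate 4, whose values are therefore given apart. On the first principal component of all genes, which held 54.7% of the variance, fasted replicates 1 to 3 lay at 57.7 to 63.5, fasted replicate 4 at -11.1 and the ad libitum libraries at -45.8 to -39.9. Odd read counts made up 16.5 to 17.8% of the counts from 21 to 200 reads in fasted replicates 1 to 3, 10.8% in fasted replicate 4 and 9.21 to 10.3% in ad libitum libraries. Over the 5 rows of the 3 genes, 6 of 15 counts were odd in fasted replicates 1 to 3, 1 of 5 in fasted replicate 4 and 2 of 20 in ad libitum libraries. The part of this counting difference in the results was not tested.

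Sdha, the flavoprotein gene, had 6194, 7599, 4471 and 2306 reads in fasted replicates 1 to 4, against 1955, 1866, 1272 and 1999 reads in ad libitum replicates 1 to 4. In CPM, which here are reads divided by the TMM-adjusted total, that was 50.4, 57.1, 54.5 and 28.4 CPM in fasted livers, against 28.2, 32.8, 25.5 and 28.3 CPM in ad libitum livers. Fasted replicates 1 to 3 were above every ad libitum library, as in 20.5% of the genes tested, and fasted replicate 4 lay inside the ad libitum range. The means were 47.6 ± 13.1 CPM in fasted and 28.7 ± 3.01 CPM in ad libitum livers (SD, n = 4 each), a fitted log2 difference of 0.73. Fasted replicate 4 alone gave a log2 difference of -0.01, so the fasted mean of Sdha rests on 3 libraries. In bulk liver RNA, a change in the share of cells and a change in RNA per cell cannot be told apart.

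Both Sdha rows showed this split. NONMMUT018252.2, over exon 10, had 3212, 3771, 2367 and 1210 reads in fasted livers, against 945, 844, 626 and 1032 reads in ad libitum livers. Its means were 24.6 ± 6.53 CPM in fasted and 13.9 ± 1.04 CPM in ad libitum livers (SD, n = 4 each), a log2 difference of 0.81. Fasted replicate 4, at 14.9 CPM, was only just above the highest ad libitum library at 14.8 CPM, so the groups did not overlap, as in 9.24% of the rows tested with fasted livers higher. NONMMUT018253.2, over exon 6, had 2982, 3828, 2104 and 1096 reads in fasted livers, against 1010, 1022, 646 and 967 reads in ad libitum livers. Its log2 difference was 0.63, and fasted replicate 4 lay within the ad libitum range at 13.5 CPM.

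Sdhb, the iron-sulfur subunit gene, had 978, 1031, 775 and 708 reads in fasted replicates 1 to 4, against 288, 266, 256 and 318 reads in ad libitum replicates 1 to 4. These were 7.96, 7.75, 9.44 and 8.73 CPM in fasted livers, against 4.15, 4.67, 5.14 and 4.51 CPM in ad libitum livers. The groups did not overlap, as in 11% of the 13120 genes tested with fasted livers higher, and fasted replicate 4 was second to fasted replicate 3. The means were 8.47 ± 0.774 CPM in fasted and 4.62 ± 0.409 CPM in ad libitum livers (SD, n = 4 each). The log2 difference was 0.88 over all fasted libraries and 0.92 in fasted replicate 4 alone.

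Nearly all Sdhb reads came from the exon 1 and intron 1 row. NONMMUT050306.2 held 96.6 to 97.3% of them in fasted livers and 93.1 to 99.2% in ad libitum livers, and its own log2 difference was 0.87. The opposite-strand row NONMMUT117552.1 had 26, 34, 24 and 24 reads in fasted livers, against 20, 2, 4 and 10 reads in ad libitum livers. Ad libitum replicate 1 lay within the fasted range for this row, so the groups overlapped.

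Atp5b, the ATP synthase beta subunit gene, had 492, 487, 405 and 307 reads in fasted replicates 1 to 4, against 204, 142, 156 and 164 reads in ad libitum replicates 1 to 4. These were 4.01, 3.66, 4.93 and 3.79 CPM in fasted livers, against 2.94, 2.496, 3.13 and 2.32 CPM in ad libitum livers. The groups did not overlap, as in 11% of the genes tested with fasted livers higher. The lowest fasted value was 3.66 CPM and the highest ad libitum value 3.13 CPM. The means were 4.10 ± 0.577 CPM in fasted and 2.72 ± 0.377 CPM in ad libitum livers (SD, n = 4 each). The log2 difference was 0.59 over all fasted libraries and 0.48 in fasted replicate 4 alone.

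**Figure D2:**
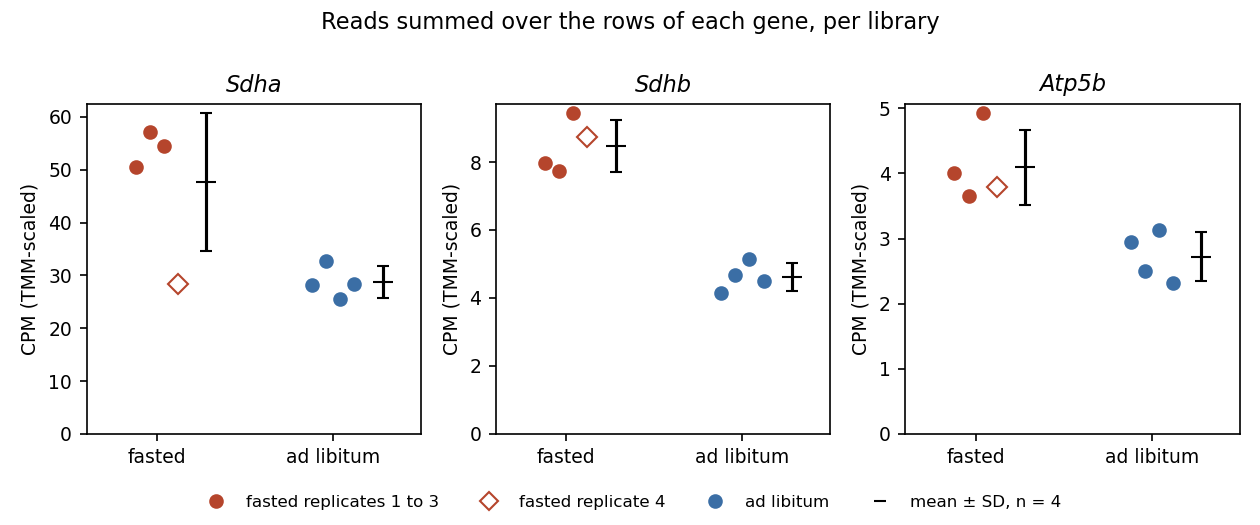
Reads summed over the rows of Sdha, Sdhb and Atp5b in each library, in TMM-scaled CPM, with mean ± SD (n = 4). Fasted replicate 4, the open diamond, lies among the ad libitum libraries for Sdha at 28.4 CPM and above all of them for Sdhb at 8.73 CPM and Atp5b at 3.79 CPM.

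In all 3 genes fasted replicates 1 to 3 were above every ad libitum library, and in 2 of them, Sdhb and Atp5b, fasted replicate 4 was as well. Fasted replicate 4 was above every ad libitum library in 26.3% of the genes tested. Since the genes were chosen for this contrast, nothing is read from these counts. The median log2 difference of all genes tested was 0.01. Rows on the own strand of coding genes with at most 10% exon had a median of 0.00 (8878 rows), with quartiles of -0.24 and 0.28.

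The deposited RPKM values, which the authors scaled to their own library totals, kept fasted replicates 1 to 3 above every ad libitum library for the 4 own-strand rows and moved fasted replicate 4 for Sdha. NONMMUT018252.2 had 7.05 to 8.45 RPKM in fasted replicates 1 to 3 and 3.64 RPKM in fasted replicate 4, against 3.36 to 3.98 RPKM in ad libitum livers, so that the groups overlapped, unlike in CPM. NONMMUT018253.2 had 9.49 to 12.98 RPKM in fasted replicates 1 to 3 and 4.99 RPKM in fasted replicate 4, against 5.25 to 7.01 RPKM in ad libitum livers, so that fasted replicate 4 was below all of them, unlike in CPM. For the Sdhb and Atp5b rows it stayed above them. NONMMUT050306.2 had 2.44 to 2.61 RPKM in fasted replicates 1 to 3 and 2.25 RPKM in fasted replicate 4, against 1.15 to 1.48 RPKM in ad libitum livers. NONMMUT008119.2 had 3.12 to 3.53 RPKM in fasted replicates 1 to 3 and 2.64 RPKM in fasted replicate 4, against 1.81 to 2.40 RPKM in ad libitum livers.

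Per kilobase of row, the order of the levels was the same in both groups. The share of mRNA exon bases differs between rows, from 0% in the Atp5b row to 8.57% in the Sdha exon 6 row. The order is therefore one of rows and not of genes. The Sdha exon 6 row was highest, at 13.3 ± 3.81 CPM per kb in fasted and 8.51 ± 1.27 CPM per kb in ad libitum livers. The Sdha exon 10 row followed at 9.34 ± 2.48 CPM per kb in fasted and 5.29 ± 0.395 CPM per kb in ad libitum livers, and these neighbours overlapped within 1 SD in fasted livers but not in ad libitum livers. Within every library the exon 10 row was the lower of the pair, at 0.651 to 0.743 of the exon 6 row per kb in fasted livers and 0.546 to 0.705 in ad libitum livers. The Atp5b row had 4.46 ± 0.628 CPM per kb in fasted and 2.96 ± 0.410 CPM per kb in ad libitum livers. The Sdhb own-strand row had 3.41 ± 0.309 CPM per kb in fasted and 1.86 ± 0.208 CPM per kb in ad libitum livers, below the Atp5b row by more than 1 SD of each in both groups. The Sdhb opposite-strand row was lowest, at 0.360 ± 0.054 CPM per kb in fasted and 0.186 ± 0.150 CPM per kb in ad libitum livers (SD, n = 4 for each of these values).

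**Figure D3:**
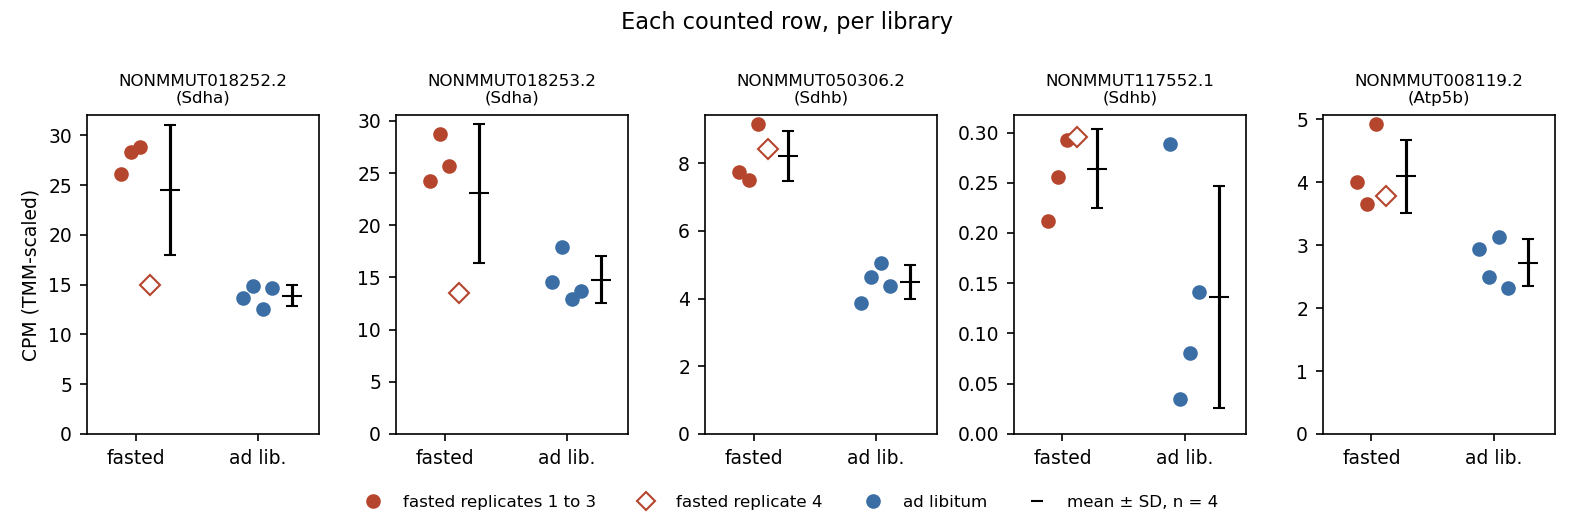
Each of the 5 counted rows in each library, in TMM-scaled CPM on axes that start at 0, with mean ± SD (n = 4). Both Sdha rows put fasted replicate 4 (open diamond, 14.9 and 13.5 CPM) near the ad libitum libraries, while the Sdhb own-strand row and the Atp5b row do not.

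The 2 complex II genes did not keep a fixed proportion. The ratio of Sdha reads to Sdhb reads, which is not corrected for row length, was 6.33, 7.37, 5.77 and 3.26 in fasted replicates 1 to 4, against 6.79, 7.02, 4.97 and 6.29 in ad libitum replicates 1 to 4. Fasted replicate 4 was below every other library. The ratio of Sdhb to Atp5b reads was 1.99, 2.12, 1.91 and 2.31 in fasted livers, against 1.41, 1.87, 1.64 and 1.94 in ad libitum livers, with overlap between the groups. Across the 8 libraries, Pearson's r of log2 CPM was 0.904 between Sdhb and Atp5b, 0.690 between Sdha and Sdhb and 0.676 between Sdha and Atp5b. These correlations are descriptions of libraries that share group and depth.

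Other coding genes followed each of the 3 more closely than they followed each other. Among 4885 coding genes with a mean of at least 1 CPM, Naca (r = 0.993), Reln (r = 0.993) and Zfp141 (r = 0.987) were most like Sdha over the 8 libraries, all from opposite-strand rows. The rows at Reln, the gene of the secreted glycoprotein reelin, lie only on its opposite strand, and 1 is shared with the antisense gene Gm10475. They averaged 42.2 ± 21.2 CPM in fasted and 9.37 ± 2.79 CPM in ad libitum livers (SD, n = 4 each), with 11.3 CPM in fasted replicate 4. Ube4b (r = 0.987, from 1 own-strand and 4 opposite-strand rows), Lsm7 (r = 0.983) and Bhmt (r = 0.983) were most like Sdhb. The rows at Bhmt, the betaine-homocysteine methyltransferase gene, also lie only on the opposite strand. They averaged 149 ± 35.5 CPM in fasted and 33.7 ± 13.5 CPM in ad libitum livers (SD, n = 4 each), with 152 CPM in fasted replicate 4. Slc45a3 (r = 0.983), Taf6l (r = 0.979) and Nrbp2 (r = 0.973) were most like Atp5b. The Taf6l rows lie only on its opposite strand, and Nrbp2 has 1 row on each strand. The only Slc45a3 row is shared with Elk4 and Gm29103. An r of at least 0.9 was reached by 4.03% of these genes with Sdha, 3.91% with Sdhb and 0.942% with Atp5b.

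Cell type markers in the same libraries moved in part with these genes. The 4 of 13 hepatocyte markers with a row summed to 2706 to 3513 CPM in fasted and 1611 to 2339 CPM in ad libitum livers, and fasted replicate 4 had the lowest fasted sum. Of these, Apoa2, Cps1 and Hnf4a (the last from an opposite-strand row) were higher and Ttr was lower in fasted livers. The 6 of 10 stellate cell and fibroblast markers with a row, Reln among them, summed to 28.8 to 75.7 CPM in fasted and 22.8 to 38.7 CPM in ad libitum livers, with fasted replicate 4 at 28.8 CPM. Without Reln the other 5 summed to 13.1, 13.9, 17.2 and 17.4 CPM in fasted replicates 1 to 4, against 14.5 to 25.3 CPM in ad libitum livers, so the spread among the fasted sums was that of Reln. Of these markers Reln was higher and Lrat and Col1a1 were lower in fasted livers. The 6 of 10 endothelial markers summed to 21.8 to 29.9 CPM in fasted and 23.9 to 27.9 CPM in ad libitum livers. Among them Stab2 was higher, at 3.26, 3.76, 4.06 and 1.95 CPM in fasted replicates 1 to 4, against 1.72 to 2.22 CPM in ad libitum livers, from opposite-strand rows, with fasted replicate 4 again within the ad libitum range. The 2 of 11 Kupffer cell markers summed to 3.45 to 3.95 CPM in fasted and 3.92 to 5.44 CPM in ad libitum livers, and 1 of them, Csf1r, was lower. Of the 2 Csf1r rows, 1 lies on the opposite strand and is shared with Hmgxb3. Bile duct markers (5 of 6 with a row) summed to 1.17 to 1.70 CPM in fasted and 1.18 to 2.168 CPM in ad libitum livers, and lymphocyte markers (2 of 9) to 0.518 to 1.21 CPM in fasted and 0.346 to 0.680 CPM in ad libitum livers. None of the 6 red blood cell markers had a row. Markers named here as higher or lower had an edgeR adjusted p under 0.05. Over all genes tested, 13.6% were higher and 11.3% lower by this call. The part of these markers in the results was not tested.

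The promoters of the 3 genes are shown for their matches to motifs of factors that act on respiratory chain genes. Each stretch holds 250 bases before and 50 bases after the RefSeq start on GRCm38.p6, and capitals mark matches to 7 short motifs. The motifs were chosen after these promoters had been read, and both strands were searched.
Sdha, chr13:74350191-74350490, minus strand: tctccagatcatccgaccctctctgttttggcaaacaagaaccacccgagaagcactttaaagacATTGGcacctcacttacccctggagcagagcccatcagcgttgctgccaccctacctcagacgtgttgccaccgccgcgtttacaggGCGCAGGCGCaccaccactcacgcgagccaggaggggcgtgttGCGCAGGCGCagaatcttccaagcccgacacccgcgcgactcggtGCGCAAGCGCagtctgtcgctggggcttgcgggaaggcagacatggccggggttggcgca
Sdhb, chr4:140961021-140961320, plus strand: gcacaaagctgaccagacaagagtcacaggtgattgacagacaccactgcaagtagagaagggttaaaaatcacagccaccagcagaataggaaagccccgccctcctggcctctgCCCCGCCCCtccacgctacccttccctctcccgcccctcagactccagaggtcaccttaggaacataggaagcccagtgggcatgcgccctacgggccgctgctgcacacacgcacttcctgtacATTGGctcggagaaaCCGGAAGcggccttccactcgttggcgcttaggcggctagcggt
Atp5b, chr10:128083057-128083356, plus strand: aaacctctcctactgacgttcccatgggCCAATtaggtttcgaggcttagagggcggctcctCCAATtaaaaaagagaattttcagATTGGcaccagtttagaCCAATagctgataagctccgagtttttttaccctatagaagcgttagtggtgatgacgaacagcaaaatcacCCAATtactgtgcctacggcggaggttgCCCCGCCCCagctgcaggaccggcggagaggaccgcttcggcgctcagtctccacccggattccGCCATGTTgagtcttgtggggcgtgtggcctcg

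The Sdha promoter held 3 matches to the NRF1 motif, which 4.6% of 32851 mouse promoters of this length contain. They read GCGCAGGCGC, GCGCAGGCGC and GCGCAAGCGC. The Sdhb promoter held 1 match to the ETS and GABPA motif CCGGAAG (8.86% of promoters) and 1 to the SP motif CCCCGCCCC (11.4%). The Atp5b promoter held 1 match to the YY1 motif AANATGGC (6.05%), on the opposite strand, and 1 to the SP motif. The CCAAT motif, present in 37.4% of promoters, matched 5 times in Atp5b and 1 time each in Sdha and Sdhb. The ERR motif TCAAGGTCA (0.423%) and the PPAR direct-repeat motif (0.0396%) had no match in these windows. No matches overlapped each other. The start of NONMMUT117552.1 lies inside the Sdhb window.

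Other nuclear-encoded subunit genes were tested in the fit of the whole table. The rule did not choose them, but this list and those below were chosen with earlier results of these data known. Of 79 listed subunit genes besides the 3, 21 had a row and 20 were tested. Cytochrome c (Cycs) and the ATP synthase inhibitor gene Atpif1 are counted among them. In edgeR's quasi-likelihood fit, with Benjamini-Hochberg adjusted p-values over all genes and a threshold of 0.05, 6 were higher, 1 was lower and 13 did not pass in fasted against ad libitum livers. Over all genes tested, 13.6% were higher and 11.3% lower. The median log2 difference of the 20 genes was 0.22. In fasted replicate 4 alone 0 of the 20 passed, where edgeR called 5.14% of all genes, and 3 were at an unadjusted p under 0.05, 2 of them higher.

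In complex I, the NADH dehydrogenase, 4 of 8 tested genes were higher and 1 was lower. Ndufs4 rose to 2.91 ± 0.728 CPM in fasted livers, against 1.57 ± 0.236 CPM in ad libitum livers (SD, n = 4 each; log2 0.89, edgeR adjusted p = 0.0083), with 1.92 CPM in fasted replicate 4. Ndufa6 had 30.4 ± 9.01 CPM in fasted and 16.5 ± 2.47 CPM in ad libitum livers (log2 0.88, edgeR adjusted p = 0.021), with overlap between the groups and 18.8 CPM in fasted replicate 4. Its call was lost in 5 of 18 alternatives, namely without fasted replicate 1, without ad libitum replicate 1, 3 or 4, and with a replicate block (edgeR adjusted p up to 0.060). Ndufab1, the mitochondrial acyl carrier protein, had 7.30 ± 1.97 CPM in fasted and 4.04 ± 0.344 CPM in ad libitum livers (log2 0.85, edgeR adjusted p = 0.0076), with 4.55 CPM in fasted replicate 4 and 4.51 CPM as the highest ad libitum value, from an opposite-strand row shared with Gm44986. Ndufb2, named here after its value was seen, was also higher, with a log2 difference of 0.61 (edgeR adjusted p = 0.043), from rows on the opposite strand. Its groups overlapped, since fasted replicate 4 had 2.57 CPM and a log2 difference of -0.09. Ndufa12 fell to 2.26 ± 0.164 CPM in fasted livers, against 3.58 ± 0.175 CPM in ad libitum livers (log2 -0.67, edgeR adjusted p = 0.0026), with 2.22 CPM in fasted replicate 4, but its 1 row lies on the opposite strand and is shared with Nr2c1.

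In complexes III and IV and in ATP synthase, fewer genes passed. Uqcrfs1, the Rieske iron-sulfur protein of complex III, had 34.8 ± 4.95 CPM in fasted and 25.2 ± 3.05 CPM in ad libitum livers (log2 0.46, edgeR adjusted p = 0.015), with 31.0 CPM in fasted replicate 4, from an opposite-strand row, and did not pass without ad libitum replicate 1 (adjusted p = 0.058). None of 3 tested genes of cytochrome c and complex IV passed. The one with the largest change, Cox6b1, had 187 ± 10.7 CPM in fasted and 159 ± 17.3 CPM in ad libitum livers (log2 0.24, edgeR adjusted p = 0.10), with 182 CPM in fasted replicate 4. In ATP synthase, with its inhibitor gene Atpif1 included, 1 of 7 genes besides Atp5b passed. This was Usmg5, a small membrane subunit, with 7.87 ± 0.710 CPM in fasted and 5.66 ± 0.396 CPM in ad libitum livers (log2 0.48, edgeR adjusted p = 0.0081), and with 8.32 CPM in fasted replicate 4. The only Usmg5 row has at most 10% exon.

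**Figure D4:**
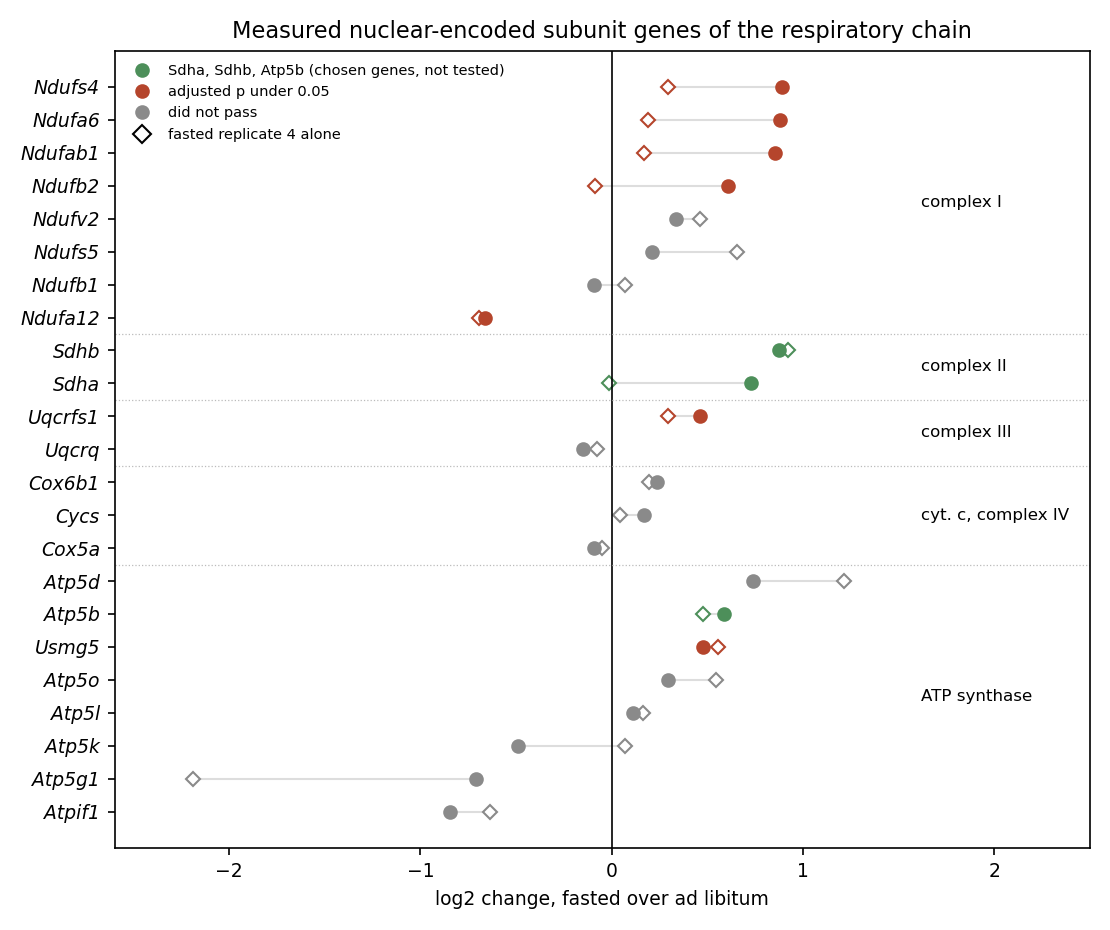
Log2 difference, fasted over ad libitum, of the 23 listed nuclear-encoded subunit genes, with Cycs and Atpif1 included, that could be fitted, grouped by complex. Circles are all 4 fasted libraries and open diamonds fasted replicate 4 alone. Sdha has its diamond at -0.01 and its circle at 0.73, while those of Sdhb lie at 0.92 and 0.88.

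Of the other complex II genes, Sdhc and Sdhd, which encode the membrane anchor, had no row sharing exon bases. The assembly factor Sdhaf1, which helps to insert iron-sulfur clusters into Sdhb, had 14.4 ± 2.11 CPM in fasted and 17.9 ± 0.756 CPM in ad libitum livers (log2 -0.32, edgeR adjusted p = 0.047), from a row shared with E130208F15Rik, and lost its call in 11 of 18 alternatives. Its fasted replicate 4, at 17.3 CPM, lay within the ad libitum range. Sdhaf2, which helps to attach FAD to Sdha, had 2.60 ± 0.394 CPM in fasted and 2.496 ± 0.204 CPM in ad libitum livers (log2 0.06, edgeR adjusted p = 0.80), with 2.24 CPM in fasted replicate 4. The Sdhaf2 row NONMMUT033895.2 has at most 10% exon and is shared with Cpsf7. Sdhaf4 had 0.155 ± 0.052 CPM in fasted and 0.274 ± 0.073 CPM in ad libitum livers (log2 -0.78, edgeR adjusted p = 0.15), with 0.123 CPM in fasted replicate 4, from an opposite-strand row shared with Gm26524.

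Of 24 tested assembly factors of all complexes, 4 were higher and 4 lower, where 13.6% of all genes tested were higher and 11.3% lower. Surf1, a complex IV assembly factor, had 1.06 ± 0.495 CPM in fasted and 0.322 ± 0.086 CPM in ad libitum livers (log2 1.73, edgeR adjusted p = 0.0067), with 0.456 CPM in fasted replicate 4. Sco2, a copper chaperone of complex IV, had 13.5 ± 2.41 CPM in fasted and 7.91 ± 0.967 CPM in ad libitum livers (log2 0.77, edgeR adjusted p = 0.0022), with 17.1 CPM in fasted replicate 4, from an opposite-strand row shared with Tymp. Cox15, needed for heme A synthesis, fell to 1.29 ± 0.208 CPM in fasted livers, against 2.70 ± 0.682 CPM in ad libitum livers (log2 -1.06, edgeR adjusted p = 0.0033), with 1.39 CPM in fasted replicate 4, from an opposite-strand row shared with Entpd7. Uqcc1, a complex III assembly factor, had 6.27 ± 0.566 CPM in fasted and 4.69 ± 0.611 CPM in ad libitum livers (log2 0.42, edgeR adjusted p = 0.027), with 5.92 CPM in fasted replicate 4, and lost its call in 7 of 18 alternatives. All Uqcc1 rows have at most 10% exon.

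Beyond Sdha and Sdhb, 2 of 5 tested citric acid cycle genes were higher and 0 lower, against 13.6% and 11.3% of all genes tested. Ogdh, of the 2-oxoglutarate dehydrogenase complex, had 15.7 ± 4.28 CPM in fasted and 6.92 ± 0.521 CPM in ad libitum livers (log2 1.18, edgeR adjusted p = 0.0023), with 9.46 CPM in fasted replicate 4. The Ogdh reads come from an own-strand row with at most 10% exon and an opposite-strand row. Idh3a, of isocitrate dehydrogenase, had 5.07 ± 0.616 CPM in fasted and 3.46 ± 0.214 CPM in ad libitum livers (log2 0.55, edgeR adjusted p = 0.0081), with 5.82 CPM in fasted replicate 4. Of 5 tested mitochondrially encoded genes 2 were higher, mt-Nd5 (log2 0.41, edgeR adjusted p = 0.048) and mt-Nd6 (log2 0.42, edgeR adjusted p = 0.046). The only row of mt-Nd5 lies on the opposite strand to it and on the strand of mt-Nd6, which shares it. Fasted replicate 4 had 3247 CPM for mt-Nd5 and 3645 CPM for mt-Nd6, and each gene lost its call in 11 alternatives. The other 3 genes, mt-Nd3, mt-Nd4l and mt-Co3, have a single opposite-strand row between them, so the 5 genes are not separate measurements.

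Among 8 tested regulators of the chain, 3 were higher and 1 lower, against 13.6% and 11.3% of all genes tested. Ppargc1a, the coactivator PGC-1alpha, had 3.17 ± 0.497 CPM in fasted and 1.40 ± 0.528 CPM in ad libitum livers (log2 1.19, edgeR adjusted p = 0.0050), with 2.79 CPM in fasted replicate 4. Yy1, a zinc finger transcription factor, fell to 24.97 ± 1.31 CPM in fasted livers, against 38.3 ± 2.69 CPM in ad libitum livers (log2 -0.62, edgeR adjusted p = 4.5e-04), with 26.7 CPM in fasted replicate 4. Tfam, which packages and transcribes mitochondrial DNA, had 48.2 ± 3.08 CPM in fasted and 40.7 ± 2.01 CPM in ad libitum livers (log2 0.25, edgeR adjusted p = 0.042), with 50.3 CPM in fasted replicate 4, and lost its call in 11 of 18 alternatives. Tfb1m, a mitochondrial rRNA methyltransferase, had 5.07 ± 0.370 CPM in fasted and 3.88 ± 0.480 CPM in ad libitum livers (log2 0.38, edgeR adjusted p = 0.039), with 5.01 CPM in fasted replicate 4, and lost its call in 9 of 18.

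A further 3 rows touch the 3 genes and were not counted. For 2 of them it is not known whether they share exon bases, since their inner exon positions are unknown. NONMMUT018254.2, which shares none, in Sdha intron 3 on the opposite strand, had 38 to 203 reads in fasted livers, against 18 to 40 reads in ad libitum livers. Its span holds exon bases of the processed pseudogene Gm16125 on the row's own strand. NONMMUT117553.1, opposite to Sdhb with exon positions unknown, had 96, 50, 59 and 22 reads in fasted livers, against 4, 2, 12 and 4 reads in ad libitum livers. NONMMUT083016.1, opposite to Atp5b with exon positions unknown, had 129, 110, 102 and 64 reads in fasted livers, against 42, 28, 20 and 36 reads in ad libitum livers. Of its span of 7054 bases, 4304 lie outside Atp5b, and the span holds exon bases of Baz2a. In the first, fasted replicate 4 again lay within the ad libitum range once scaled, at 0.469 CPM, and in the others it was above it.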

How the data were processed

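Liver RNA of 8 mice was sequenced. Reads were processed with bcl2fastq 2.17 and BWA on mm10, per the submitters' processing notes; the read counter and whether it used strand are not stated there. The deposited table holds raw read counts and RPKM per row and library, and a coding-potential score (CNCI), per the file headers. An empty count cell was read as 0, where the deposited RPKM is also 0. The 16S rRNA row, 26 to 31.6% of the reads, is empty in ad libitum replicate 3 and was left out of totals and tests, which leaves 51107745 to 119486211 reads per library.

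Rows were matched to GENCODE mouse release 21 by at least 1 shared exon base: by their whole interval for 44808 single-exon rows, by the exons of an identical transcript for 5248, and by first and last base for 33001 whose inner exon positions are unknown. Counts were summed per gene. Coding genes took rows of either strand, so reads of a gene and of its opposite-strand partner cannot be told apart, and a read in overlapping rows can count more than once.

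Genes and rows were fitted with edgeR 4.0.16 (quasi-likelihood, robust, TMM, filterByExpr; two-sided) in R 4.3.3, with Benjamini-Hochberg adjustment over all features tested and a threshold of 0.05. A term for fasted replicates 1 to 3 left fasted replicate 4 to be compared with ad libitum livers; this lone library is assumed to vary like the others. Alternatives were RLE scaling, library totals, DESeq2 1.42.0, the 16S row kept in the totals, other low-count filters (none, or at least 1 CPM in 4 libraries), other row rules (own strand, most abundant row), a replicate block and each library left out. On simulated counts, the fit of fasted against ad libitum livers recovered 19.4% of 1.5-fold, 55.2% of 2-fold and 92.4% of 4-fold changes. A gene that did not pass is therefore not shown to be unchanged. The comparison of fasted replicate 4 alone was not simulated.

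The members and lists were chosen with earlier results of these data known. Named are the 3 genes with all their rows, up to 4 passing genes of lowest p per list (the largest change where none passed), all complex II genes and assembly factors, and the 3 coding genes most like each of the 3. Copies were searched with blastn 2.17.0.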

Additional observations from a re-analysis of the deposited data

Results flagged for a closer look

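Sco2 had 17.1 CPM in fasted replicate 4, against 12.03 to 12.9 CPM in the other 3 fasted libraries, a gap large enough to stand out by Dixon's test. Chance gives about 1 such gap in 20 groups, and 60 groups were looked at. The row is on the opposite strand and shared with Tymp.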

How the results depend on the processing

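The log2 differences of the 3 genes kept their direction in 18 alternatives each, from 0.64 to 0.90 for Sdha, 0.82 to 0.93 for Sdhb and 0.49 to 0.65 for Atp5b. The count of other subunit genes that passed, 7, was 3 of 10 tested with own-strand rows only, where fewer genes were tested, and ranged from 4 to 7 with single libraries left out (4 without ad libitum replicate 1). Of all genes, 3272 passed, and 1981 to 4358 with single libraries left out (ad libitum replicate 1 absent, 2009; ad libitum replicate 4 absent, 2077; fasted replicate 1 absent, 2020; fasted replicate 3 absent, 1981). Of all rows, 7033 passed, 4661 with library totals, 11275 with no low-count filter, and 4158 to 11295 with single libraries left out, where 4588 passed if ad libitum replicate 4 was dropped, and dropping fasted replicate 1, 3 or 4 gave 4158, 4195 or 11295. The cause of these shifts was not tested. Of 387 values of 22 named genes, 320 kept direction and call, 66 lost the call and 1 changed sign, Sdhaf2, whose log2 difference of 0.06 ranged from -0.014 to 0.13 with single libraries left out. With the replicate number as a block, 5 subunit genes passed. Deviations of same-numbered libraries correlated at 0.036, 1.2e-05, 0.019 and -0.004, which gives no sign of pairing by number but cannot exclude it. Counting rows of unknown exon positions by their span was added after seeing the data. The opposite-strand Sdhb row, with 2 to 34 reads, is the one limited by depth.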

Other observations

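Sdhc, the complex II anchor gene on chromosome 1, has 2 rows within its introns that share no exon base and were picked after their values were seen. NONMMUT003759.2, at chr1:171140603-171143433, had 4.43, 4.34, 4.35 and 4.37 CPM in fasted replicates 1 to 4, against 12.6, 7.73, 6.99 and 8.02 CPM in ad libitum replicates 1 to 4. The log2 difference of this row was -1.02. NONMMUT003758.2, at chr1:171131775-171135184, had 5.93, 4.51, 5.30 and 4.55 CPM in fasted livers, against 4.36, 4.25, 4.10 and 3.85 CPM in ad libitum livers (log2 0.29). Because of how they were picked, neither row is given a test.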
